A study of Homo sapiens with 9 samples.

Results

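The genes described here are 10 transcripts that mark the dorsal interneurons of the spinal cord: *LHX2*, *LHX9*, *BARHL1*, *BARHL2*, *FOXD3-AS1*, *POU4F1*, *TLX3*, *DRGX*, *LBX1* and *LMX1B*. They were taken by gene name, as a list of factors of the dI1 to dI5 classes, from 31589 genes in the tables of the series. All 10 were present in at least 1 table. RNA was measured by bulk sequencing in human spinal cord organoids (SCOs), which are grown from induced pluripotent stem cells of the WTC line and hold neural tube and neural crest derivatives. The labels give the genotype as WT, and the methods of the study describe 3 clones of this line that carry a *SOX10* reporter switch, with organoids of a clone pooled for a library. The 9 libraries fall into 3 conditions of 3 libraries each, all with an exposure of 96 hours: vehicle (FGF), VPA, and VPA with Rapamycin. Valproic acid (VPA) is an anti-seizure drug that inhibits histone deacetylases, and Rapamycin inhibits the mTOR kinase. No condition received Rapamycin without VPA, so the effect of Rapamycin can only be read on a VPA background. Libraries of the same number share a label prefix across conditions, but no source used here says which clone a number stands for, and the p-values below measure the spread between these libraries.

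Dorsal interneurons are born next to the roof plate of the neural tube, where BMP and WNT signals set the order of the progenitor domains. The dI1 class comes from *ATOH1* progenitors and turns on *BARHL1*, *BARHL2*, *LHX2* and *LHX9*, which direct its commissural and ipsilateral axons. The dI2 class expresses *FOXD3*, the dI3 class *ISL1*, *TLX3*, *DRGX* and *POU4F1*, the inhibitory dI4 class *LBX1* and *PAX2*, and the excitatory dI5 class *LBX1*, *LMX1B*, *TLX3*, *DRGX* and *POU4F1*. None of these genes is limited to the dorsal cord. *LHX2* also works in the forebrain and the eye, *POU4F1* in peripheral sensory neurons, *LMX1B* in the roof plate and in limb mesenchyme, and *FOXD3* in the neural crest. *FOXD3-AS1* is not a transcription factor but an antisense RNA whose gene lies across *FOXD3*.

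Total counts were alike among the 9 libraries, from 15290325 to 17417368. The vehicle libraries differed most. Vehicle replicate 3 stood at least 5-fold above the higher of the other vehicle libraries in 86 of the 17278 genes that had 10 or more counts in it, or 0.498%, while the same count for each of the other 8 libraries within its own condition lay between 8 and 24 genes. This rule was chosen after the values were seen. Of the 10 members 6 had 10 or more counts in vehicle replicate 3, and 4 of those 6 met the rule: *LHX9*, *BARHL1*, *TLX3* and *LMX1B*. The minimum of 10 counts is set on that same library, so members low there could not enter and this share supports nothing. *LHX2* (4 counts) and *BARHL2*, *LBX1* and *DRGX* (0 counts each) were left out in this way. Each result that rests on this library is given with and without it. In bulk RNA, fewer cells of a type and less RNA per cell cannot be told apart.

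**Figure D1:**
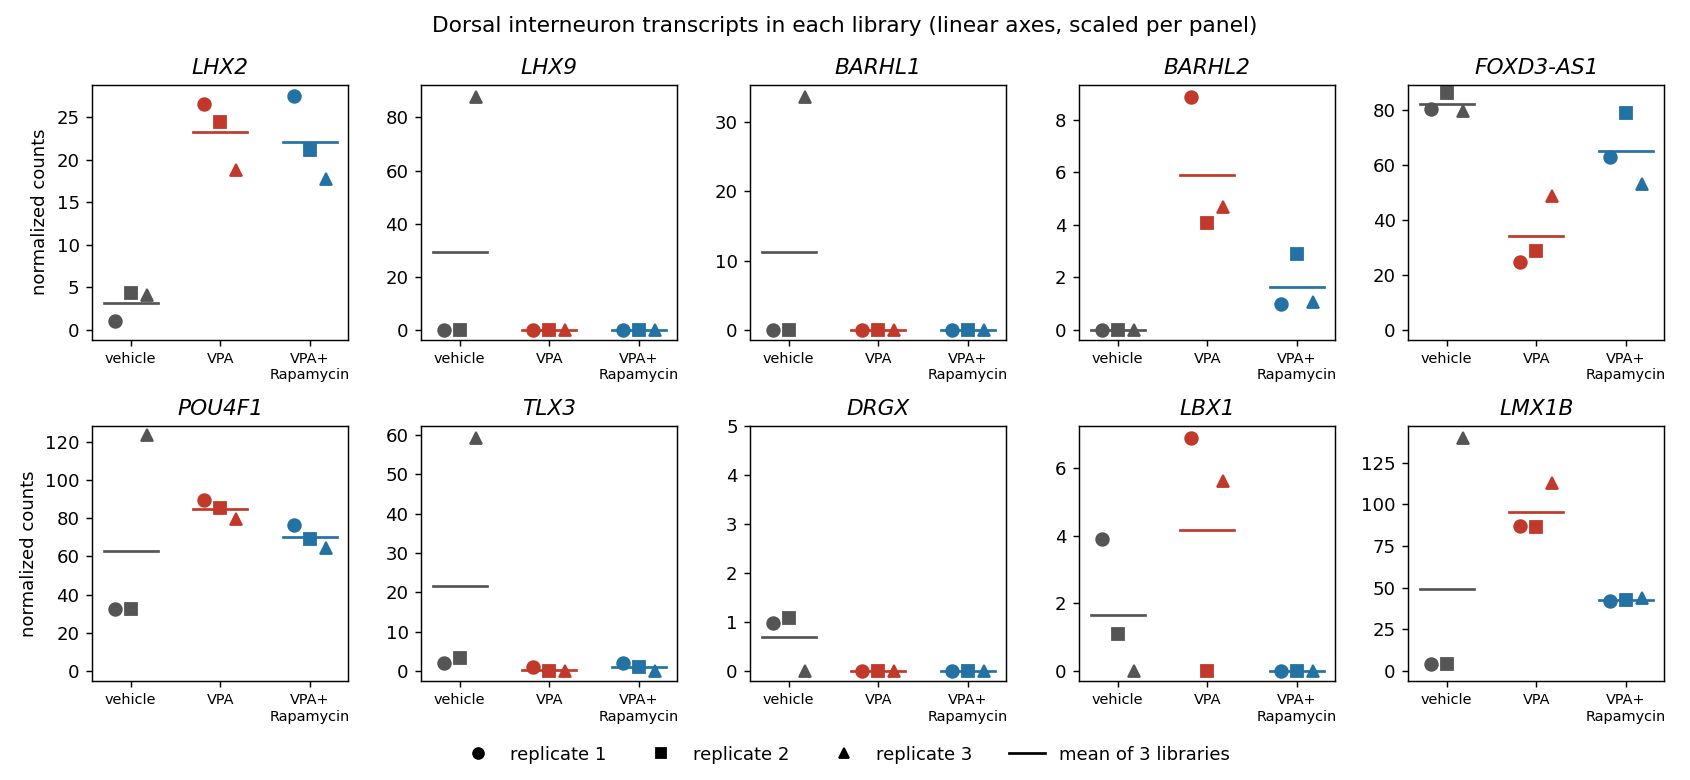
Normalized counts (y axis, linear, scaled for each panel) of the 10 members in the 3 conditions. Points are libraries, marked by replicate number, and lines are means of 3 libraries. *LHX9*, *BARHL1*, *TLX3*, *LMX1B* and *POU4F1* have their highest value in vehicle replicate 3. *LHX2* is higher in every VPA and VPA+Rapamycin library than in any vehicle library, and *FOXD3-AS1* is lowest in the VPA libraries.

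Most of the list was barely expressed. Only *LHX2*, *FOXD3-AS1*, *POU4F1* and *LMX1B* passed the filter on low counts and were tested, and the same 4 of 10 passed in each comparison. *LHX2* passed through the treated libraries alone and *LMX1B* through the treated libraries and vehicle replicate 3, so the number that passed supports nothing. Per kilobase of gene length, the levels in vehicle were 67.8 ± 2.89 normalized counts for *FOXD3-AS1* (SD, n = 3), 13.8 ± 11.6 for *POU4F1*, 8.48 ± 13.5 for *LMX1B* and 1.18 ± 0.707 for *LHX2*. In VPA these were 28.1 ± 10.7, 18.7 ± 1.10, 16.4 ± 2.57 and 8.77 ± 1.53, so that *FOXD3-AS1* stayed the highest of the 4 but *POU4F1* and *LMX1B* were within their spread of each other in both conditions.

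The dI1 factors showed no common pattern. *LHX2* (chr9:124001670-124033301, plus strand, GRCh38), a LIM homeodomain factor, had normalized counts of 0.977, 4.35 and 4.09 in vehicle replicates 1 to 3, of 26.6, 24.5 and 18.8 in VPA, and of 27.5, 21.2 and 17.7 in VPA+Rapamycin. All treated libraries lay above all vehicle libraries, and both treated conditions overlapped. *LHX2* rose with VPA by a log2 fold change of 2.85 ± 0.58 (SE), or 7.20-fold, with an adjusted p of 0.00368 in edgeR's quasi-likelihood test. No other of the 4 tested members rose, so the count was 1 of 4, beside 16.4% of all 17360 genes tested. Against vehicle, VPA+Rapamycin gave 2.78 ± 0.59 (edgeR adjusted p = 0.00982), and *LHX2* was again the 1 of 4 tested members to rise, beside 9.81% of 17383 genes. In both comparisons *LHX2* passed the filter through the treated libraries alone, so it could only be tested as higher. These shares therefore support nothing. Between VPA+Rapamycin and VPA the difference was −0.07 ± 0.39 (edgeR adjusted p = 0.946). The vehicle level rested on 9 counts in all, and the call in VPA+Rapamycin against vehicle was lost without VPA+Rapamycin replicate 1 (adjusted p = 0.0542).

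Of the 10 forebrain and eye markers 8 were found in the series, and these gave the following values beside *LHX2*. Their summed level ran from 16.3 to 27.6 normalized counts in vehicle, from 64.2 to 103 in VPA and from 32.3 to 60.6 in VPA+Rapamycin. Of the sums in VPA replicates 1 to 3, *RAX* alone made 39.5, 44.8 and 50.7. With VPA 1 of the 2 that could be tested rose, *RAX*, a homeobox gene of the eye field and hypothalamus, by 4.91 ± 0.60 (edgeR adjusted p = 0.000206). Like *LHX2*, *RAX* passed the filter through the treated libraries alone and could only be tested as higher. *OTX2* was at 0 in all VPA libraries, and *EMX1* and *SIX3* did not exceed 3.95 normalized counts in any library. The part of cells of this kind in the *LHX2* result was not tested.

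*LHX9* (chr1:197911902-197935478, plus strand), the paralog of *LHX2*, behaved otherwise. It had 86 counts in vehicle replicate 3 and 0 in each of the other 8 libraries. Its level in vehicle replicate 3 was at least 26.9-fold above the floor of 3 counts in the other vehicle libraries. Over the group, VPA was at least 30.0-fold lower than vehicle and VPA+Rapamycin at least 29.6-fold lower, and without vehicle replicate 3 there was no count in any condition. *BARHL1* (chr9:132582185-132590266, plus strand), a homeodomain factor downstream of *ATOH1*, repeated this with 33 counts in vehicle replicate 3 and 0 elsewhere. VPA was at least 11.5-fold and VPA+Rapamycin at least 11.4-fold lower than vehicle, again through that library alone. *ATOH1* itself, the proneural gene of dI1 progenitors, had 0, 0 and 129 normalized counts in vehicle and at most 6.73 in any treated library. Thus *LHX9*, *BARHL1* and *ATOH1* were found together in 1 vehicle library. The other listed dI1 factors were not raised in it. *BARHL2* had 0 counts there, and *LHX2* had 4.09 normalized counts, compared with 4.35 in vehicle replicate 2.

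*BARHL2* (chr1:90711539-90717237, minus strand), the paralog of *BARHL1*, was without a count in vehicle. It had 9, 4 and 5 counts in VPA replicates 1 to 3, compared with 1, 3 and 1 when Rapamycin was added, so that every VPA library lay above every other. Summed over each condition, VPA was at least 5.73-fold and VPA+Rapamycin at least 1.61-fold higher than the floor of 3 counts allows for vehicle. *BARHL2* did not pass the filter. Fitted without one, it had an edgeR adjusted p of 0.0210 in VPA against vehicle and of 0.526 in VPA+Rapamycin against VPA.

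Other genes of the dorsal tube were high in the same library. Of the 8 roof plate genes with 10 or more counts there, 5 stood at least 5-fold above both other vehicle libraries: *GDF7*, *WNT3A*, *RSPO1*, *ZIC1* and *ZIC4*. *WNT3A*, a roof plate signal, had 6.84, 4.35 and 167 normalized counts in vehicle, and *ZIC1* 9.77, 23.9 and 631. Of 11 dorsal progenitor factors 3 did so (*ATOH1*, *MSX2* and *PAX7*), as did 2 of 11 further dorsal interneuron factors (*ISL1* and *POU4F2*). The share was 0 of 8 for dorsal neuron effectors, 0 of 13 for ventral interneuron factors and 0 of 13 for pan-neuronal markers. Markers of other tissues stood above the other vehicle libraries too, with 2 of 9 neural crest markers (*TFAP2A* and *TFAP2B*), 1 of 10 peripheral sensory neuron markers and 5 of 9 mesenchyme markers (*COL3A1*, *TWIST1*, *PRRX1*, *LUM* and *DCN*). A single forebrain and eye marker, *EMX2*, had 10 or more counts there, and 0 of 1 passed. Genes under 10 counts in this library, such as *LMX1A* (4) and *WNT1* (7) of the roof plate list, could not enter. These shares therefore support nothing.

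The dI2 transcript *FOXD3-AS1* (chr1:63320884-63324441, minus strand) was even among the vehicle libraries. It had normalized counts of 80.1, 85.9 and 79.7 in vehicle, of 24.7, 28.5 and 48.8 in VPA and of 62.9, 78.9 and 53.1 in VPA+Rapamycin. Every VPA library lay below every other library, and every VPA+Rapamycin library lay between VPA and vehicle, with no overlap. With VPA *FOXD3-AS1* fell by 1.27 ± 0.31 on the log2 scale, or 2.41-fold (edgeR adjusted p = 0.00971), 1 of 4 tested members to fall beside 15.7% of all genes tested. The difference between VPA+Rapamycin and VPA was 0.93 ± 0.31 and missed the threshold (edgeR adjusted p = 0.0799), although the libraries did not overlap. Of 14 alternatives 12 did not call it either, with values from 0.74 (adjusted p = 0.248, without VPA replicate 1) to 1.29 (adjusted p = 0.0381, without VPA replicate 3). VPA+Rapamycin against vehicle gave −0.34 ± 0.24 (edgeR adjusted p = 0.355).

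*FOXD3*, a forkhead factor of dI2 neurons and of early neural crest, moved in the same directions. It had 85.0, 116 and 171 normalized counts in vehicle, 39.5, 45.9 and 59.1 in VPA, and 88.4, 134 and 93.7 in VPA+Rapamycin. It fell with VPA by 1.37 ± 0.30 (edgeR adjusted p = 0.00563) and rose in VPA+Rapamycin against VPA by 1.13 ± 0.25 (edgeR adjusted p = 0.0104), a call that 12 of 14 alternatives made and the fit of all 9 libraries did not (adjusted p = 0.0987). The genes share 179 exonic bases on opposite strands. Without knowledge of the strand in counting, reads there cannot be assigned, so the values of the pair are not independent of each other. The ratio of *FOXD3* to *FOXD3-AS1* counts ran from 1.06 to 2.14 in vehicle, from 1.21 to 1.61 in VPA and from 1.41 to 1.76 in VPA+Rapamycin, and these ranges overlapped.

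In RefSeq the pair also shares a stretch of promoter, shown because both RNAs fell with VPA. There the starts point away from each other, at 63322567 for *FOXD3* and at 63322458 for *FOXD3-AS1*, and 108 bases lie between them at chr1:63322459-63322566 (GRCh38.p14, plus strand). The capitals mark a TGACGTCA element, the sequence that CREB and ATF factors bind, and a CACGTG E-box. The annotation behind the deposited tables starts *FOXD3* at 63323041 and *FOXD3-AS1* at 63324441, so that in it these bases lie within *FOXD3-AS1* and not between the starts.
FOXD3 and FOXD3-AS1: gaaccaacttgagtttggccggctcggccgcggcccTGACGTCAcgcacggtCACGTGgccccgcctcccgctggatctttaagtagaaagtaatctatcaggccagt
Searched on both strands, TGACGTCA was found in 1.85% and CACGTG in 7.26% of the 35116 RefSeq promoter windows, which run from 250 bases before to 50 bases after a start. Of the 9 members with a window, *FOXD3-AS1* alone held TGACGTCA, and CACGTG was also found for *BARHL2* and *DRGX*. Another E-box, CAGCTG, is in 17.9% of all windows and was found for *POU4F1*. The AP-1 motif TGANTCA is in 7.71% of all windows and was found for none of the 9. These are matches of letters and say nothing of binding.

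Neural crest markers gave these values beside the fall of *FOXD3-AS1*. Their sum ran from 9070 to 9492 normalized counts in vehicle, from 8444 to 9377 in VPA and from 9228 to 9699 in VPA+Rapamycin. Of 8 tested with VPA, 3 fell and 2 rose. *SOX10*, the crest and glial factor that the reporter of these cells reads, fell by 5.15 ± 0.29 (edgeR adjusted p = 2.52e-06) and rose in VPA+Rapamycin against VPA by 2.19 ± 0.60 (edgeR adjusted p = 0.0345). The fit of all 9 libraries did not call this rise. In VPA+Rapamycin replicate 1 *SOX10* had 7.86 normalized counts, within the VPA range of 4.93 to 10.2. *TFAP2A*, an AP-2 factor of early crest, fell by 2.64 ± 0.85, only with vehicle replicate 3 (−0.88, adjusted p = 0.309, without it). *ERBB3*, the neuregulin receptor, rose by 1.29 ± 0.16, and *ETS1* by 1.34 ± 0.29. In VPA+Rapamycin against vehicle 1 rose and 2 fell of 8. The part of crest cells in the *FOXD3-AS1* result was not tested.

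Among the dI3 and dI5 factors, *TLX3* (chr5:171309284-171312134, plus strand), a selector of the excitatory fate, had 2, 3 and 58 counts in the vehicle libraries. In the treated libraries it had at most 2 counts, so that it was at or under the floor of 3 counts everywhere but in vehicle replicate 3. DESeq2, which tests it, called it lower with VPA (adjusted p = 0.00139) and with VPA+Rapamycin (adjusted p = 0.00770) than in vehicle, through that library. *DRGX* (chr10:49364181-49396016, minus strand), a homeobox gene of dI3, dI5 and sensory neurons, had 1, 1 and 0 counts in vehicle and 0 in each treated library, so no difference was detectable at this depth. Neither passed the edgeR filter, and fitted without one *TLX3* was also called lower with VPA (adjusted p = 4.62e-06) and VPA+Rapamycin (adjusted p = 0.000517) and *DRGX* was not (0.481 and 0.521).

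*POU4F1* (chr13:78598362-78603560, minus strand), a POU factor of dI3, dI5 and peripheral sensory neurons, had normalized counts of 32.2, 32.6 and 124 in vehicle, of 89.8, 85.6 and 79.8 in VPA and of 76.6, 69.3 and 64.6 in VPA+Rapamycin. The treated libraries all lay between the lower pair of vehicle libraries and vehicle replicate 3. VPA against vehicle gave a log2 fold change of 0.42 ± 0.45 (edgeR adjusted p = 0.509), and VPA+Rapamycin against vehicle 0.14 ± 0.46 (edgeR adjusted p = 0.859). Without vehicle replicate 3 these were 1.38 ± 0.30 (2.61-fold, edgeR adjusted p = 0.00167) and 1.10 ± 0.31 (edgeR adjusted p = 0.0191). Between VPA+Rapamycin and VPA the difference was −0.27 ± 0.22 (edgeR adjusted p = 0.510).

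The 11 peripheral sensory neuron markers summed to 2520 to 2841 normalized counts in vehicle, 2720 to 3005 in VPA and 2669 to 2830 in VPA+Rapamycin, ranges that overlap. With VPA 3 of 10 tested rose and 2 fell. *SCN9A*, a sodium channel of nociceptors, rose by 2.92 ± 0.24, *RUNX3*, a factor of proprioceptors, by 4.25 ± 0.80, and *RET* by 1.00 ± 0.20. Of these, *RUNX3* passed the filter through the VPA libraries alone and could only be tested as higher. In VPA+Rapamycin against VPA 1 of 9 fell, *RUNX3*, by 1.57 ± 0.44 on the log2 scale (not called in the fit of all 9 libraries). Against vehicle 2 of 9 markers rose and 1 fell, with *SCN9A* higher by 2.51 ± 0.23 and *P2RX3* lower (−0.62 ± 0.11). Their part in the *POU4F1* values was not tested.

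Of the dI4 and dI5 factors, *LBX1* (chr10:101226195-101229794, minus strand), which separates these classes from dI1 to dI3, was near the floor throughout. VPA replicates 1 to 3 held 7, 0 and 6 counts and vehicle replicates 1 to 3 held 4, 1 and 0, while no count was found in VPA+Rapamycin. Over the group, VPA+Rapamycin was at least 4.27-fold lower than VPA and at least 1.72-fold lower than vehicle. *LBX1* did not pass the filter, and 1 of 3 VPA libraries was itself at 0. Fitted without a filter, VPA+Rapamycin against VPA had an edgeR adjusted p of 0.165.

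*LMX1B* (chr9:126614443-126701032, plus strand), a LIM homeodomain factor of dI5 neurons, differed between the treated conditions. It had normalized counts of 3.91, 4.35 and 140 in vehicle, of 86.8, 86.6 and 113 in VPA and of 42.2, 42.3 and 43.7 in VPA+Rapamycin. The highest vehicle library stood 35.8-fold above the lowest, against a median of 1.38-fold over the 17360 genes tested, and the same fold was 1.30 in VPA and 1.04 in VPA+Rapamycin. Every VPA+Rapamycin library lay below every VPA library, and both treated conditions lay between vehicle replicates 1 and 2 on the low side and replicate 3 on the high side.

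In VPA+Rapamycin against VPA *LMX1B* fell by 1.15 ± 0.24 on the log2 scale, or 2.22-fold (edgeR adjusted p = 0.00677). It was the 1 of 4 tested members that fell, beside 3.73% of all 17317 genes tested. In edgeR 0 of 4 rose, beside 3.01%, with 1 higher before adjustment, *FOXD3-AS1*, and 0 called by DESeq2 or limma voom. The fit of all 9 libraries in which the vehicle spread is shared did not call *LMX1B* (adjusted p = 0.575), with the same fold change. Against vehicle the log2 fold changes were 0.93 ± 0.87 for VPA (edgeR adjusted p = 0.447) and −0.23 ± 0.93 for VPA+Rapamycin (edgeR adjusted p = 0.893). When libraries of the same number were blocked, VPA gave 2.09 ± 0.66 and was called (edgeR adjusted p = 0.0261). In VPA+Rapamycin against vehicle 0 of 4 members fell in edgeR, beside 9.22% of all genes tested, and 0 did before adjustment. DESeq2 called 1 there, *TLX3*. Without vehicle replicate 3 *LMX1B* rose by 4.49 ± 0.44 (22.4-fold, edgeR adjusted p = 4.80e-07) with VPA and by 3.33 ± 0.52 (10.1-fold, edgeR adjusted p = 0.000564) with VPA+Rapamycin, with 8 counts in the remaining vehicle libraries. Without that library 3 of 4 tested members rose with each treatment, beside 18.6% of all genes with VPA and 11.6% with VPA+Rapamycin. *LHX2* and *LMX1B* then passed the filter through the treated libraries alone, so they could only be tested as higher. The library was singled out after the values were seen, so these shares support nothing.

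Mesenchyme markers gave these values beside *LMX1B*. Their sum, of which *COL1A1* and *COL1A2* made the most, ran from 2301 to 4876 normalized counts in vehicle, from 9237 to 11831 in VPA and from 4032 to 6121 in VPA+Rapamycin. With VPA 2 of 8 tested rose, *COL1A2*, a chain of type I collagen, by 2.12 ± 0.34 (edgeR adjusted p = 0.00100) and *COL1A1* by 1.11 ± 0.28, and without vehicle replicate 3 5 of 8 rose. In VPA+Rapamycin against VPA 5 of 8 fell, with a median log2 fold change of −1.33 beside 0.00 over all genes. *LUM*, a matrix proteoglycan, fell there by 1.37 ± 0.19 and *COL1A2* by 1.32 ± 0.14. None of these 5 was called in the fit of all 9 libraries. Against vehicle 1 of 7 fell, *PDGFRA* (−1.55 ± 0.46), and without vehicle replicate 3 this call was lost (adjusted p = 0.0629) and 2 of 7 rose, *COL1A2* by 1.14 and *TWIST1*, which was then near 0 in vehicle. *TWIST1*, a mesenchymal bHLH factor, had 0, 1.09 and 64.4 normalized counts in vehicle, 44.4, 18.3 and 41.3 in VPA and 14.7, 9.62 and 10.4 in VPA+Rapamycin, which is the order *LMX1B* showed. *TWIST1* is among the 3 genes most like *LMX1B* of 18008 compared, so this likeness is high by selection. Not every marker shared the order, as *COL1A1* had its lowest vehicle value in replicate 3 (1188 normalized counts). *PRRX1* and *DCN* were at 0 in vehicle replicates 1 and 2. The part of mesenchymal cells in the *LMX1B* result was not tested.

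The bases just before the RefSeq starts of *LHX2* and *LMX1B*, the members that rose with VPA or fell when Rapamycin was added to it, are shown for their CG pairs, in capitals. They lie at chr9:124011668-124011767 and chr9:126613828-126613927 (GRCh38.p14, plus strand). The annotation behind the deposited tables starts both genes elsewhere.
LHX2: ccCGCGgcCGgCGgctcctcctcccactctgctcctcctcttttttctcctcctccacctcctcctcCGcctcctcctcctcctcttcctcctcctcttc
LMX1B: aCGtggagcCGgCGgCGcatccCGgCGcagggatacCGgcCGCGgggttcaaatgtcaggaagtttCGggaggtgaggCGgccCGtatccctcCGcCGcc
The whole promoter windows held 30 CG pairs for *LHX2*, 42 for *LMX1B*, 47 for *POU4F1* and 33 for *FOXD3-AS1*, beside a median of 14 and an upper quartile of 28 over all windows. The members that did not pass the filter on low counts had fewer, 19 for *BARHL1*, 17 for *TLX3*, 14 for *DRGX*, 23 for *BARHL2*, and 23 and 21 for the pair of *LHX9* starts. A link between CG pairs and expression was not tested. *LBX1* was not matched.

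**Figure D2:**
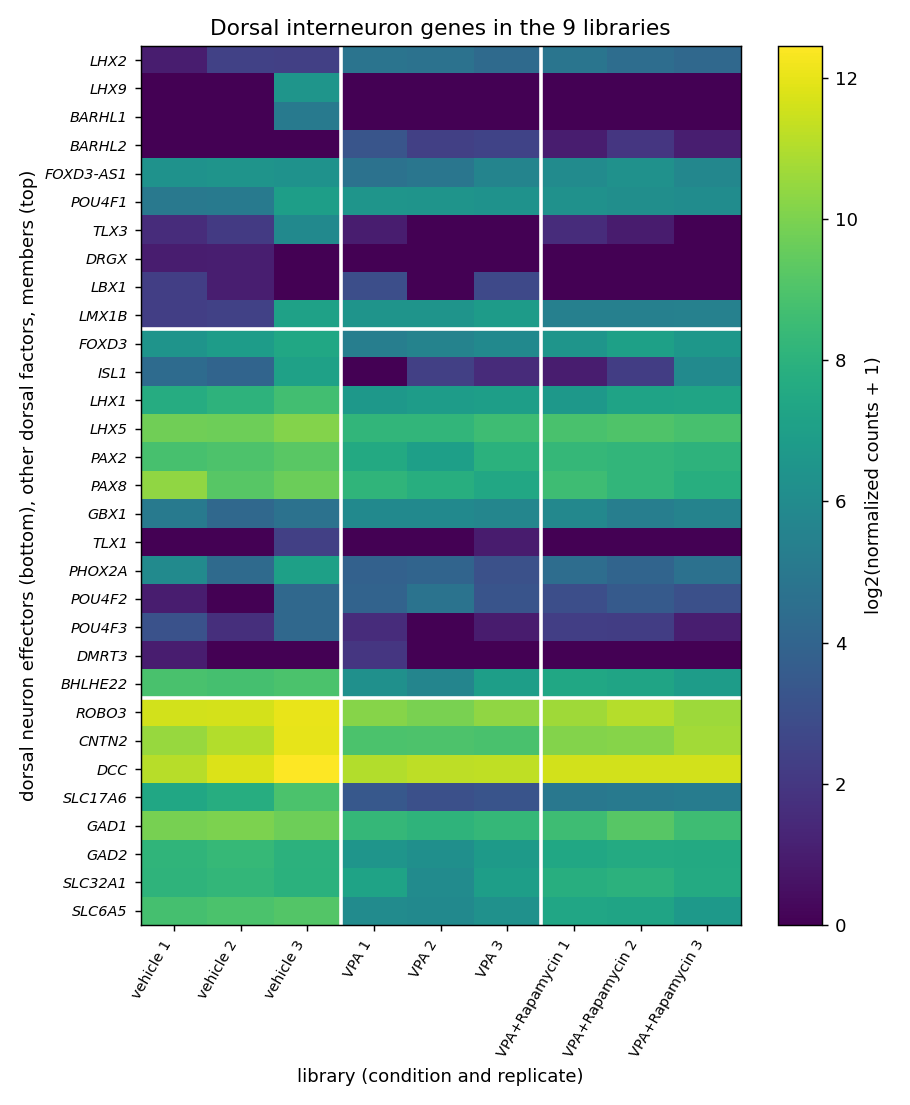
Expression as log2(normalized counts + 1) (colour) of the members, other dorsal interneuron factors and dorsal neuron effectors (rows, in this order from the top) in the 9 libraries (columns). *LHX5*, *PAX2*, *PAX8*, *BHLHE22* and the effectors are bright in vehicle and darker in VPA, while most members are dark in all but single libraries.

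Among further dorsal interneuron factors, some were well expressed and others were as sparse as most members. Of 14 listed, 10 were tested with VPA, of which 8 fell and 1 rose, with a median log2 fold change of −1.53 beside −0.00 over all genes. *BHLHE22*, a bHLH factor of dorsal horn neurons, had 473, 438 and 491 normalized counts in vehicle and 76.0, 49.9 and 124 in VPA, and fell by 2.49 ± 0.26 (edgeR adjusted p = 8.56e-05). *LHX5*, a factor of inhibitory neurons, fell by 1.55 ± 0.17, and *PAX8* (−2.02 ± 0.27) and *PAX2* (−1.51 ± 0.22) fell as well. The partner of *LBX1* in dI4, *PAX2*, was thus present at 457 to 624 normalized counts in vehicle where *LBX1* was at 3.91 at most. *PAX2* and *LHX5* are also made by ventral interneurons. In VPA+Rapamycin against VPA 3 of 9 rose, with *LHX5* higher by 0.58 ± 0.13 (edgeR adjusted p = 0.00930), calls that the fit of all 9 libraries did not make. Against vehicle 6 of 9 fell. None of these counts against vehicle turned direction without vehicle replicate 3 (8 of 10 and 5 of 9 fell).

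Dorsal neuron effectors are the guidance receptors and transmitter genes that such neurons use. All 8 fell with VPA, with a median of −1.67, and all 8 rose in VPA+Rapamycin against VPA, with a median of 1.01. In the fit of all 9 libraries 3 of these 8 rises were called. *SLC17A6*, the vesicular glutamate transporter of dorsal excitatory neurons, had 170, 216 and 478 normalized counts in vehicle, 9.87, 7.13 and 8.45 in VPA and 30.5, 33.7 and 36.4 in VPA+Rapamycin. It fell by 5.08 ± 0.45 with VPA (edgeR adjusted p = 3.03e-05) and rose by 1.97 ± 0.42 in VPA+Rapamycin against VPA (edgeR adjusted p = 0.00865). *CNTN2*, a surface protein of commissural axons, fell by 2.39 ± 0.30 and rose by 1.45 ± 0.13, *ROBO3*, the commissural guidance receptor, fell by 1.62 ± 0.15 and rose by 0.64 ± 0.11, and *SLC6A5*, the glycine transporter, fell by 2.87 ± 0.18. *GAD1*, which makes GABA, fell by 1.64 ± 0.13 with VPA. In VPA+Rapamycin 5 of 8 were lower than in vehicle. *DCC* was no longer called with VPA without vehicle replicate 3 (adjusted p = 0.0796).

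The remaining lists set these values in the wider tube. Of 11 dorsal progenitor factors 5 fell and 1 rose with VPA, with *GBX2* lower (−1.04 ± 0.16) and *IRX3* higher (0.82 ± 0.14). In VPA+Rapamycin against VPA 2 of 10 rose and 1 fell (0 and 0 in the fit of all 9 libraries). Against vehicle 3 of 10 fell. Of 6 roof plate genes 2 rose with VPA (*BMP6*, by 1.34 ± 0.29, and *BMP7*) and 1 fell, *ZIC1*, a call that was lost without vehicle replicate 3 (adjusted p = 0.902), while the 5 tested in each of the other comparisons missed the adjusted threshold, although 1 was lower in VPA+Rapamycin against VPA, and 2 were higher and 1 lower against vehicle, at an unadjusted p under 0.05. Of 13 ventral interneuron factors 11 fell with VPA, with *TAL1* lower (−2.87 ± 0.19), 8 rose in VPA+Rapamycin against VPA (3 in the fit of all 9 libraries), and 10 were lower in VPA+Rapamycin than in vehicle. Of 13 pan-neuronal markers 6 fell with VPA, led by *ELAVL4* (edgeR adjusted p = 0.000508) and *ELAVL3* (0.00281). In VPA+Rapamycin 3 of these markers rose and 1 fell against VPA (0 and 0 in the fit of all 9 libraries), and 3 were lower than in vehicle. Their sum was 30580, 40436 and 54768 normalized counts in the vehicle libraries, 28416 to 30746 in VPA and 30086 to 33471 in VPA+Rapamycin, highest in vehicle replicate 3.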

How the data were processed

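RNA of 9 libraries of SCOs, 3 for each condition, was sequenced after selection on poly-T beads and random priming. According to the submitters' processing notes, HISAT2 2.0.5 and featureCounts 1.5.0-p3 were used. The use of strand is not given in the sources used here. The counts deposited by the authors are raw reads per gene, in a table for each pair of conditions, and no row sums to fewer than 2. Their 18 columns of scaled counts and 18 of FPKM, and their fold changes and p-values from DESeq2, were not used here. Of 31589 genes, 31559 had the coordinates of GENCODE 29 on GRCh38. Promoters are from RefSeq (GRCh38.p14).

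Counts were analysed within each table in R 4.3.3 with edgeR 4.0.16 (TMM, filterByExpr at its defaults, quasi-likelihood test, Benjamini-Hochberg adjustment over all genes tested, threshold of 0.05, no block). Log2 fold changes are treated minus reference. Normalized counts are counts scaled by TMM over the 9 libraries to their mean size. The floor is 3 counts, per library or, for "at least" folds between conditions, over the group, and covers counting error only. Replicate libraries differed by more than sampling noise (mean chi-square per gene 4.53 to 35.0, the last between vehicle replicates 1 and 3). DESeq2 1.42.0 and limma 3.58.1 served as alternatives, and the steps were tested on simulated data.

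The members and the 10 further lists (other dorsal interneuron factors, dorsal progenitor factors, roof plate genes, dorsal neuron effectors, ventral interneuron factors, pan-neuronal, peripheral sensory neuron, neural crest, mesenchyme, and forebrain and eye markers) were chosen with earlier results of these data known. The rule for named genes gave all members, from each list the up to 4 genes with the smallest adjusted p past the threshold with VPA and up to 2 in each other comparison, *FOXD3* as the overlapping gene, and the 3 genes most like each member. Not every list gene that the rule gave is printed, the like genes of 4 sparse members are left out, and others named beside them were chosen after their values were seen. Values of some genes of the lists are not reported here.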

Additional observations from a re-analysis of the deposited data

How the results depend on the processing

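The counts of members called were small and moved with the treatment of low counts and of vehicle replicate 3. With VPA against vehicle 1 member was higher, but 3 were with limma voom and sample weights, 2 without a filter on low counts and 0 with at least 10 counts in every library. Lower was 1, but 2 with DESeq2 and 4 without a filter, which adds *LHX9*, *BARHL1* and *TLX3*. In VPA+Rapamycin against VPA 0 were higher, but 1 without a filter, and 1 was lower, but 0 with all 9 libraries in a single fit. Against vehicle VPA+Rapamycin had 1 higher, but 3 with voom and 0 with at least 10 counts in every library, and 0 lower, but 1 with DESeq2 and 3 without a filter. *LMX1B* in VPA+Rapamycin against vehicle (−0.23) turned to 2.75 with voom, and ran from −0.78 to 3.33 when a library was left out, the last without vehicle replicate 3. Leaving out each library gave 1 to 3 members higher and 1 lower with VPA, 0 to 1 higher and 1 lower in VPA+Rapamycin against VPA, and 0 to 3 higher and 0 lower against vehicle. Of 164 refitted log2 fold changes of members, 151 kept direction and side of the threshold or stayed uncalled, 9 passed it, 2 lost it and 2 reversed. Over all genes, voom called 4582 higher and 4417 lower with VPA, and 3486 and 3234 with VPA+Rapamycin against vehicle. A log2 fold change of at least 1 left 1180 and 786 with VPA, 64 and 124 in VPA+Rapamycin against VPA, and 746 and 375 against vehicle. The single fit gave 44 and 69 in VPA+Rapamycin against VPA, with 6 genes of the other lists in place of 33, and no filter gave 57 in place of 35 against vehicle. Leaving out a library gave 1791 to 3480 higher and 1599 to 3230 lower with VPA, 175 to 533 and 297 to 670 in VPA+Rapamycin against VPA, and 761 to 2204 and 534 to 2110 against vehicle, with 46 to 68, 18 to 32 and 22 to 47 genes of the other lists. The cause was not tested. The replicate numbers share a label prefix across conditions but were not shown to pair the libraries, since deviations of same-numbered libraries correlated from −0.06 to 0.14. A replicate block called 2 members higher with VPA (*LMX1B* added, 2.09 ± 0.66), and 2598 genes higher and 2367 lower. Depth limits *BARHL2*, *DRGX* and *LBX1*, with at most 9 counts in any library.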

Other observations

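For each member the genes with the most similar pattern were looked up, by Pearson's r of log2 CPM over the 9 libraries, among 18008 expressed genes. These are descriptions over libraries that share conditions, and the highest of many correlations is high by selection. For *LHX2* they were *PRKCH* (r = 0.994), *FAHD1* (0.991) and *ZNF365* (0.989). For *FOXD3-AS1* they were *MMP24* (0.986), *CPLX2* (0.977) and *STAG3L2* (0.973). *POU4F1* and *LMX1B* were in each other's top 3 (r = 0.973), which the high value of both in vehicle replicate 3 shaped. *POU4F1* was further matched by *SPATA17* (0.967) and *PEG10* (0.966), and *LMX1B* by *PCDH10* (0.975) and *TWIST1* (0.975). *LHX9* and *BARHL1*, with counts in 1 library only, had the same top genes, *HSPA1B* (0.975), *FAM171B* (0.970) and *APTR* (0.968). *HSPA1B*, a heat shock gene, had 283, 210 and 646 counts in the vehicle libraries and 250 to 273 in the treated ones. For the remaining sparse members (*BARHL2*, *TLX3*, *DRGX* and *LBX1*), with at most 9 counts outside vehicle replicate 3, the likeness is not read.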
